A study of Mus musculus with 9 samples.

Results

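The miR-10 microRNAs are encoded in the Hox gene clusters, and the 4 mature products of their genes, mmu-miR-10a-5p, mmu-miR-10a-3p, mmu-miR-10b-5p and mmu-miR-10b-3p, were followed in mouse milk fat. They were chosen by name from a table of 1915 mature miRNA names, with the diet comparison of these libraries already known, so their diet values and fitted fold changes are given as a description, and no p is given for them. All 4 names had at least 1 count, and 3 of the 4 passed the filter on low counts that 312 names passed in all. The high-fat group was 4 dams whose diet took 60% of its energy from fat, at 5.24 kcal per g. The control group was 5 dams whose diet took 10% of its energy from fat, at 3.85 kcal per g. All dams were ICR (CD1) mice, an outbred stock, with a first litter, and both diets held 7% of their energy as sucrose. Diets began at 4 weeks of age, 4 weeks before mating, and went on until milk was taken on lactation day 10. Each library is the small RNA of the washed fat layer of the milk of 1 dam, and counts are sequencing reads per mature miRNA name. The fat was washed to remove trapped cells, and the gland itself was not sampled. Milk fat globules can enclose cytoplasm of the cell that secretes them.

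A miRNA is cut from a hairpin precursor, whose arms give a 5p and a 3p product. One product, the guide, is mostly kept in the silencing complex and pairs with target mRNAs through its seed, while the other, the passenger, is mostly degraded. In mammals the miR-10 genes lie inside the Hoxb and Hoxd clusters, which pattern the body axis, and miR-10 is known to repress Hox transcripts. In human breast cancer cells miR-10b has been studied for a role in invasion through HOXD10, and in mouse cells miR-10a has been reported to bind transcripts of ribosomal proteins. In endothelium miR-10a is known to restrain inflammatory signalling.

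The mature sequences are shown because the members are told apart by very few bases. They are given 5′ to 3′ from RefSeq on GRCm38.p6, with the seed (bases 2 to 8) in capitals.
miR-10a-5p: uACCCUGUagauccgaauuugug
miR-10b-5p: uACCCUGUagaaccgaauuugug
miR-10a-3p: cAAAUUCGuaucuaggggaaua
miR-10b-3p: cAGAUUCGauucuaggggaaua

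The 5p products shared 22 of 23 bases and the whole seed, and differed by U12A, counted from 1 at the 5′ end with the miR-10a base first. No other name in the table with a RefSeq sequence carried their seed, ACCCUGU, among 1623 names that had one. The 3p products differed by A3G, U9A and A10U. The first of these lies in the seed, so the 3p products had the seeds AAAUUCG and AGAUUCG, which no other such name shared.

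The hairpins are shown with both mature arms in capitals.
mir-10a: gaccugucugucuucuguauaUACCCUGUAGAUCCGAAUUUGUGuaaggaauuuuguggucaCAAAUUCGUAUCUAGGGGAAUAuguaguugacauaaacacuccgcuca
mir-10b: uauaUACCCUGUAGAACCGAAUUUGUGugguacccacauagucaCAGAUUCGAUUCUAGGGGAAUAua

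The mir-10a hairpin lies on chromosome 11 at 96317165 to 96317274 (GRCm38, plus strand), overlaps no other annotated gene and ends 992 bases before Hoxb4. The mir-10b hairpin lies on chromosome 2 at 74726070 to 74726137 (plus strand). It falls in an intron of Hoxd3 in 1 annotated transcript and of Hoxd4 in 2, with no exon of either gene over it.

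The deepest library, high-fat 2, held 3897109 counts and the shallowest, control 5, held 837817. A list of 7 miRNAs of the secretory epithelium was led by miR-148a-3p and miR-30a-5p. It made up 28.9% to 31.8% of counts in high-fat and 26.9% to 32.7% in control libraries. Without another tissue to compare, these shares describe the libraries and do not test the labelled source. High-fat libraries 1 and 3 stood apart in leukocyte miRNAs. The 5-name leukocyte list, with miR-223-3p of myeloid cells and miR-142a of blood cells, held 1.14% and 0.287% of their counts. It held 0.00777% and 0.0251% in high-fat libraries 2 and 4, and 0.0356% to 0.0762% in control libraries. High-fat library 3 was also the highest in red-cell miRNAs, at 0.0650%, against at most 0.00971% in the other high-fat and 0.0158% in the control libraries. With 4 and 5 dams the number of libraries limits every comparison, and intervals within a library cover counting error only. That dams were housed in pairs before mating is stated, but which of them shared a cage is not given, so cage and dam cannot be told apart.

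The guide of mir-10a, mmu-miR-10a-5p, was the abundant member. Levels are in CPM, the usual scaling of a count to the total of its library, and each read stands for a whole mature miRNA, so no length correction applies. miR-10a-5p measured 2200, 2954, 2105 and 1801 CPM in high-fat libraries 1 to 4, and 1452, 691, 931, 1410 and 2018 CPM in control libraries 1 to 5. Its level in control library 5 lay above that of high-fat library 4, so the diets overlapped, while the other 4 control libraries lay below every high-fat library. The mean was 2265 ± 490 CPM in high-fat (SD, n = 4) and 1300.3 ± 514 CPM in control milk (SD, n = 5). By mean level over all libraries it ranked 49 among the 828 detected names. These levels rest on 3433 to 11513 counts per high-fat library and 860 to 2561 per control library. In the library with the fewest counts, control library 2, the 95% Wilson interval ran from 646 to 739 CPM, far narrower than the spread between dams.

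mmu-miR-10b-5p, with the same seed, was scarcer, and its diets did not overlap. It measured 248 CPM in high-fat library 1 and 90.3, 96.4 and 101.8 CPM in high-fat libraries 2 to 4, against 43.3, 33.7, 32.4, 28.8 and 7.16 CPM in control libraries 1 to 5. Every high-fat library was above every control library, the lowest high-fat value being 2.08 times the highest control value. Among all tested names, 8 of 312 (2.56%) had all high-fat libraries above all controls and 5 (1.60%) had all below. As miR-10b-5p was chosen with these values known, nothing is read from that count. The mean was 134 ± 76.2 CPM in high-fat and 29.1 ± 13.4 CPM in control milk (SD, n = 4 and 5).

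The highest and the lowest miR-10b-5p levels came from 1 library of each diet. High-fat library 1 had 580 counts, while the other 3 high-fat libraries lay close together, at 90.3 to 101.8 CPM. Control library 5, the shallowest, had 6 counts, with a Wilson interval of 3.28 to 15.6 CPM. Without these libraries the means were 96.2 ± 5.74 CPM in high-fat (SD, n = 3) and 34.5 ± 6.23 CPM in control milk (SD, n = 4), a ratio of 2.78 in place of 4.62 with all libraries. Leaving them out was chosen after the values were seen.

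**Figure D1:**
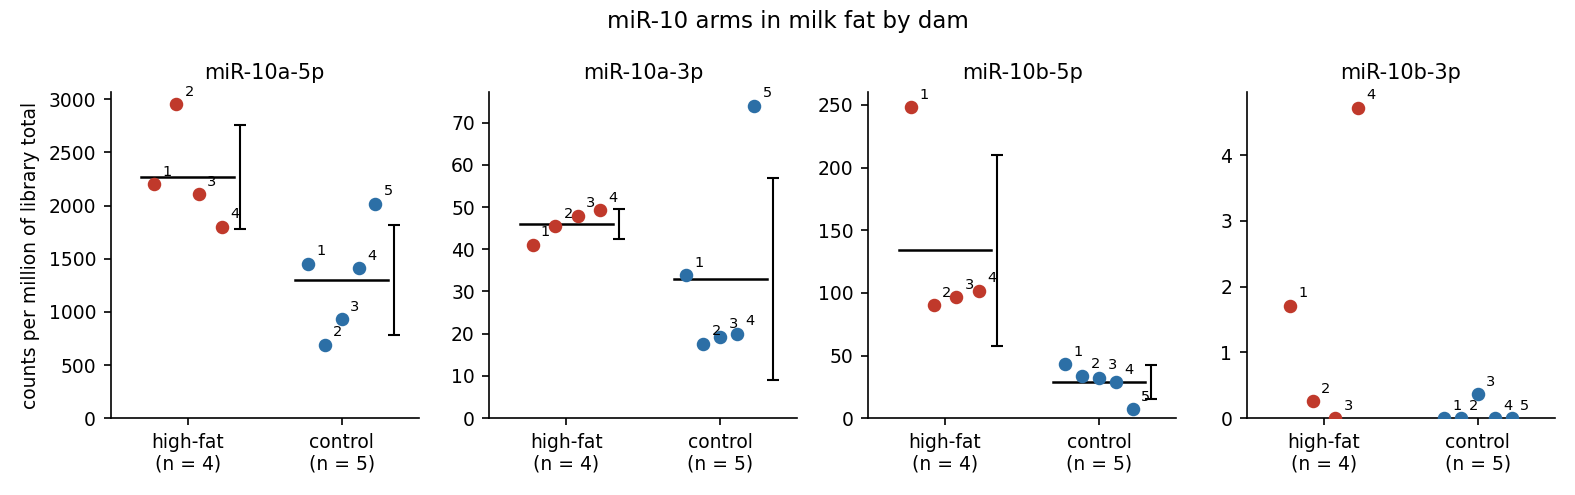
Level in CPM (vertical axis, linear) for the 4 miR-10 products, with high-fat dams left and control dams right of each panel. Points are dams, labelled by library number, and lines and bars give the mean and SD, except for miR-10b-3p, where several dams are at 0. For miR-10b-5p high-fat library 1 is highest, at 248 CPM, and control library 5 lowest, at 7.16 CPM, and control library 5 at 2018 CPM is the highest control for miR-10a-5p.

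The passenger of mir-10a, mmu-miR-10a-3p, was measured in every library. miR-10a-3p reached 41.1, 45.4, 48.0 and 49.3 CPM in high-fat libraries 1 to 4, and 33.8, 17.7, 19.3, 20.0 and 74.002 CPM in control libraries 1 to 5. The high-fat libraries were close together, whereas control library 5 lay above all of them and the other 4 controls below. The mean was 45.9 ± 3.62 CPM in high-fat and 33.0 ± 23.8 CPM in control milk (SD, n = 4 and 5). Over all libraries the diets thus overlapped. Without control library 5 the control mean was 22.7 ± 7.49 CPM (SD, n = 4), and leaving it out was chosen after the values were seen.

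The passenger of mir-10b, mmu-miR-10b-3p, was at the edge of detection. miR-10b-3p had 4, 1, 0 and 9 counts in high-fat libraries 1 to 4, and 0, 0, 1, 0 and 0 counts in control libraries 1 to 5. With 0 counts seen, a true level of up to 3 counts was taken as possible, or 1.48 CPM in high-fat library 3 and 1.78 to 3.58 CPM in the 4 control libraries at 0. For each of these 4 control libraries alone, 0 counts thus did not exclude a level like the 1.71 CPM of high-fat library 1. Whether the 4 libraries jointly exclude it was not tested. Single counts were seen at lower levels, 0.257 CPM in high-fat library 2 and 0.364 CPM in control library 3. High-fat library 4, at 4.72 CPM, had most of the counts. The name did not pass the filter and has no fitted fold change.

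Together the 4 names held 0.245% ± 0.0481 of high-fat and 0.136% ± 0.0526 of control counts (SD, n = 4 and 5). miR-10a-5p alone made up 92.4% ± 3.08 of this family's counts in high-fat and 95.1% ± 1.39 in control milk.

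The order of the members within a library did not use the diet comparison and was tested with an exact sign-flip permutation test over all 9 dams, for 3 ratios. miR-10a-5p exceeded miR-10b-5p in 9 of 9 libraries, by a mean of 4.96 ± 1.34 on the log2 scale (SD, n = 9; two-sided exact p = 0.00391, adjusted p = 0.00391). The 5p product of mir-10a exceeded its 3p product by 5.50 ± 0.42 (SD, n = 9; exact p = 0.00391, adjusted p = 0.00391), and that of mir-10b by 6.40 ± 1.57 (SD, n = 9; exact p = 0.00391, adjusted p = 0.00391). This p is the smallest that 9 libraries can give. The 3 ratios were chosen with earlier results of these data known, so it gives no independent support for their order. The mir-10b value depends on the pseudocount of 0.5 counts, because 5 of its 9 libraries had no 3p count. Of the remaining pair, miR-10b-5p lay above miR-10a-3p in all 4 high-fat libraries and in control libraries 1 to 4, and below it in control library 5. That order was not tested.

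The guides of both genes did not keep a constant ratio. Per 100 counts of miR-10a-5p there were 11.3, 3.06, 4.58 and 5.65 counts of miR-10b-5p in high-fat libraries 1 to 4, and 2.99, 4.88, 3.48, 2.04 and 0.355 in control libraries 1 to 5. High-fat library 1 was the highest and control library 5 the lowest, and the diets overlapped between 3.06 and 4.88. The mean was 6.14 ± 3.59 in high-fat and 2.75 ± 1.69 in control milk (SD, n = 4 and 5). The passenger share of mir-10a was steadier. Per 100 counts of miR-10a-5p there were 1.87, 1.54, 2.28 and 2.74 counts of miR-10a-3p in high-fat libraries, and 2.33, 2.56, 2.07, 1.42 and 3.67 in control libraries. The range of the control libraries enclosed all 4 high-fat values.

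A single base separates both guides, and the sources used here do not say how mismatches were treated. The lowest ratio found, 0.355 counts per 100 in control library 5, would give 12.2 to 40.9 of the 194 to 580 miR-10b-5p counts in high-fat libraries, or 3.14% to 11.6% of them. In control libraries 1 to 4 it would give 7.27% to 17.4% of the counts. At the upper Wilson limit of that ratio, 0.775 per 100, the shares would be 6.87% to 25.4% in high-fat libraries and 15.9% to 38.0% in control libraries 1 to 4. These shares assume 1 rate for all libraries, and whether reads of miR-10a-5p were counted as miR-10b-5p was not tested.

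**Figure D2:**
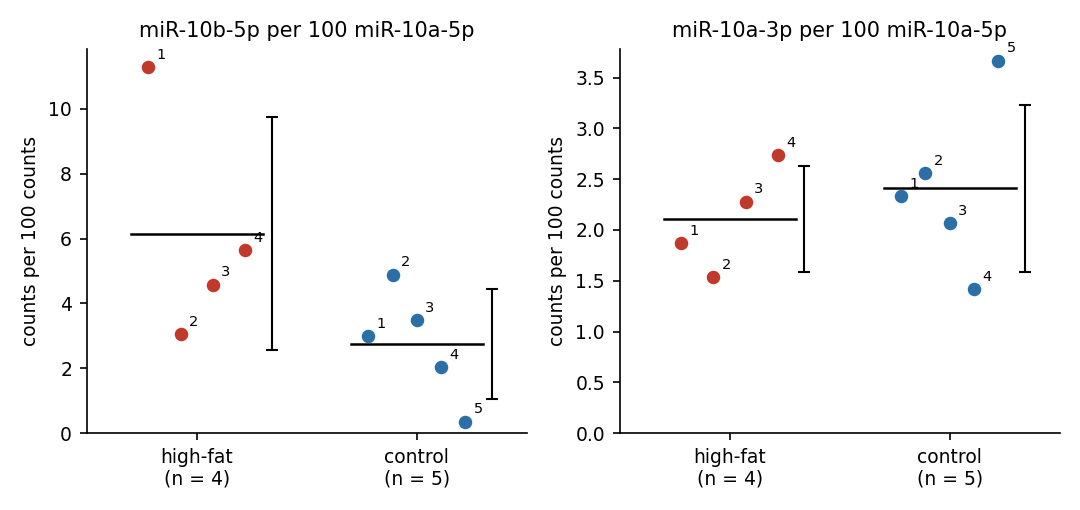
Counts of miR-10b-5p (left) and of miR-10a-3p (right) per 100 counts of miR-10a-5p in the same library, with high-fat dams left and control dams right. Points are dams with their library number, and lines and bars give the mean and SD. The left ratio runs from 0.355 to 11.3 and the right one from 1.42 to 3.67.

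The diet comparison was fitted for all 312 names with limma-voom, and 0 of 312 names (0%) were called at an adjusted p of 0.05. An unadjusted p below 0.05 was found for 32 names (10.3%), and limma-trend called 2 names (0.641%). Without a filter on low counts 4 of 828 names (0.483%) were called, without control library 5 it was 4 of 308 (1.30%), and without high-fat library 1 and control library 5 together 4 of 302 (1.32%). Nothing is read from these counts about the members. The fitted log2 fold change, high-fat over control, was 2.11 ± 0.44 for miR-10b-5p (SE), 0.89 ± 0.28 for miR-10a-5p and 0.81 ± 0.34 for miR-10a-3p. All 3 were above 0, as were 158 of 312 names (50.6%), and their median of 0.89 compares with 0.00 over all tested names. In order from the highest they stood at ranks 2, 18 and 21 of 312. These ranks describe values that were known when the members were chosen.

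The size of the miR-10b-5p value depended on which libraries were in the fit. Without high-fat library 1 and control library 5 together its log2 fold change was 1.51 ± 0.22 (SE), and without high-fat libraries 1 and 3, the leukocyte-rich ones, it was 1.83 ± 0.42. Both exclusions were chosen after seeing the data.

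**Figure D3:**
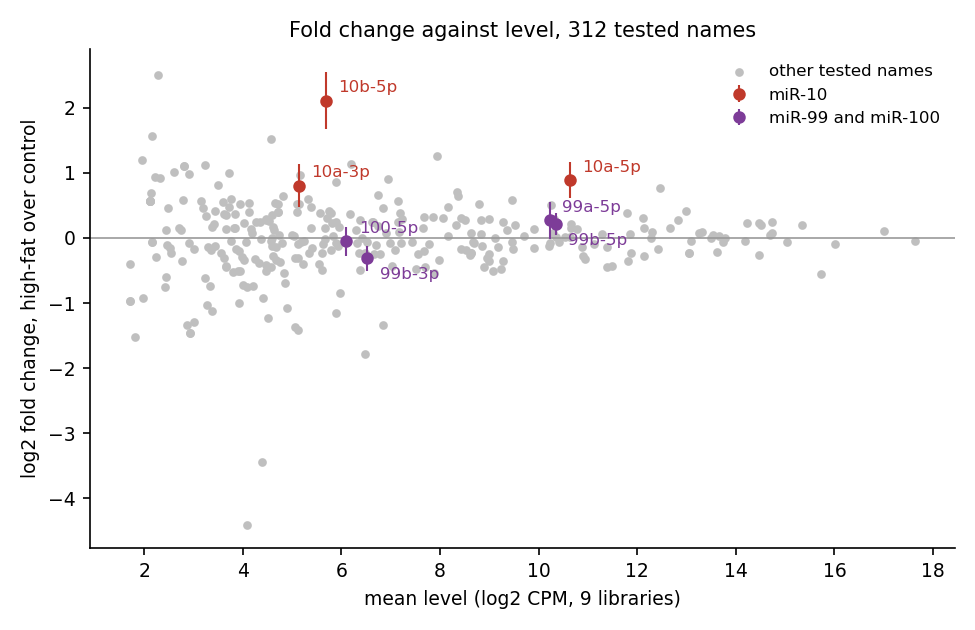
Fitted log2 fold change, high-fat over control (vertical axis), against mean level in log2 CPM (horizontal axis) for 312 tested names. Red points are miR-10 products and purple points miR-99 and miR-100 products, with bars of 1 SE. miR-10b-5p lies at 2.11, while the purple points lie between -0.31 and 0.27.

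Within diets the members also differed in spread, which was not tested. The SD of log2 CPM within diets was 0.84 for miR-10b-5p, 0.65 for miR-10a-3p and 0.49 for miR-10a-5p, at ranks 63, 94 and 135 from the most variable of 312 names. By mean log2 CPM miR-10b-5p stood at rank 161 and miR-10a-5p at rank 52 of these names, with miR-10a-3p at rank 179.

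The other miRNAs of the Hox clusters had few counts in milk fat. miR-196a is encoded in the Hoxb and Hoxc clusters, miR-196b at Hoxa9 and miR-615 in an intron of Hoxc5, and in mouse embryos miR-196a is known to cut the Hoxb8 transcript. Of 7 listed products, 3 had any count and none passed the filter. miR-196a-5p had 14, 2, 1 and 2 counts in high-fat libraries and 1 count, in library 3, over all controls. miR-196b-5p had 13, 0, 1 and 0 counts in high-fat libraries and 4 counts, also in library 3, over all controls. High-fat library 1 held most counts of both, as it also held the highest miR-10b-5p level and the highest leukocyte share. miR-615-3p had 2 and 4 counts in high-fat libraries 1 and 2 and 0 in every other library.

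miR-99 and miR-100 are the nearest relatives by sequence, best known for repressing mTOR, and they are encoded outside the Hox clusters. They carry another seed, ACCCGUA, but share a run of bases with the miR-10 guides that begins inside the seed. The RefSeq sequence of miR-100-5p, with its seed in capitals, is shown because its level deviated most like that of miR-10b-5p over all 9 libraries.
miR-100-5p: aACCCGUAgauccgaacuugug

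Its longest run shared with miR-10a-5p is 11 bases and with miR-10b-5p 5 bases. Of 6 listed products 4 were tested, and 2 of these had a fold change above 0, against 158 of 312 names (50.6%) in all. Called in either direction were 0 of the 4, as were 0 of all 312 tested names, miR-10 products included. miR-99a-5p averaged 1417 ± 555 CPM in high-fat and 1118 ± 202 CPM in control milk (SD, n = 4 and 5), a log2 fold change of 0.27 ± 0.29 (SE). miR-99b-5p averaged 1423 ± 198 CPM in high-fat and 1233 ± 224 CPM in control milk, and its log2 fold change was 0.22 ± 0.17. miR-100-5p averaged 69.8 ± 14.2 CPM in high-fat and 70.0 ± 18.9 CPM in control milk, with a log2 fold change of -0.05 ± 0.22, and miR-99b-3p had one of -0.31 ± 0.19. The median fold change of these 4 was 0.08 on the log2 scale, against 0.00 over all tested names.

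Names whose dams deviated most like those of each guide were sought among 274 tested names with a mean of at least 10 CPM, using the Pearson correlation of deviations from the diet means over 9 libraries. For miR-10a-5p these were let-7b-5p (0.83), let-7c-5p (0.81), miR-128-3p (0.78) and its own passenger miR-10a-3p (0.74). let-7b-5p measured 8394 CPM in control library 5 and 3837 CPM in control library 2, the libraries in which miR-10a-5p was highest and lowest among controls. Without these libraries, which lay farthest from the median of miR-10a-5p, the values were 0.36, 0.30, 0.71 and 0.29. The Pearson values for both let-7 names and for the passenger thus depended on them. Over all 9 libraries the rank (Spearman) correlations were 0.75, 0.67, 0.73 and 0.62, in the same order.

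For miR-10b-5p the most alike were miR-100-5p (0.92), miR-1983 (0.88), miR-350-3p (0.85) and miR-16-1-3p (0.83). Without control library 5 and high-fat library 1 the values were 0.77, 0.69, 0.91 and 0.39, so miR-350-3p then led these names. miR-100-5p measured 90.8, 60.0, 65.3 and 62.96 CPM in high-fat libraries and 91.4, 66.7, 85.4, 62.5 and 44.2 CPM in control libraries, highest in library 1 of each diet and lowest in control library 5. miR-10a-5p stood at rank 239 of 274 in likeness to miR-10b-5p, with a correlation of -0.61 that was -0.29 without the same libraries. These names were picked as the most alike of many, so the correlations describe these 9 libraries and carry no p.

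Marker miRNAs of other cell types are given beside these levels, as the miR-10 family is not specific to the secretory epithelium. In bulk milk fat, fewer cells of a type and less RNA per cell cannot be told apart. The leukocyte list had 5 of 5 tested fold changes above 0, a median of 0.97 on the log2 scale. Their SEs were wide, from 0.87 to 2.23, and 0 of these names were called, as were 0 of all 312 tested names. High-fat library 1 was highest in that list and in miR-10b-5p. High-fat libraries 2 and 4 were below every control in that list and had 90.3 and 101.8 CPM of miR-10b-5p, against at most 43.3 CPM in controls. The part of leukocytes in the miR-10 levels was not tested. The endothelial list, miR-126a-3p and miR-126a-5p, held 0.00105% to 0.00291% of high-fat and 0.000643% to 0.00220% of control counts, with 2 of 2 fold changes above 0. It was highest in high-fat library 1, at 68 counts, and had 6 counts in control library 5 and 8 in control library 2. Its part in the miR-10 levels was not tested.

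The stromal and smooth muscle list, led by miR-143-3p, held 1.17% to 2.57% of high-fat and 1.04% to 1.92% of control counts. It was highest in high-fat library 4 and lowest in control library 5. Of its 3 tested fold changes 2 were above 0. On the log2 scale they were 0.005 ± 0.285 for miR-143-3p, 0.40 ± 0.91 for miR-199a-3p and -0.26 ± 0.21 for miR-145a-5p (SE). The red-cell list held 0.00201% to 0.0650% of high-fat and 0.00227% to 0.0158% of control counts. Striated muscle markers made up at most 0.00979% of high-fat and 0.000643% of control counts, with miR-206-3p at 0 in all libraries. The high-fat maximum came from library 3, with 198 list counts, against 7, 5 and 10 in high-fat libraries 1, 2 and 4. Neural markers held at most 0.00325% of high-fat and 0.00179% of control counts. The part of these cell types in the miR-10 levels was not tested.

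**Figure D4:**
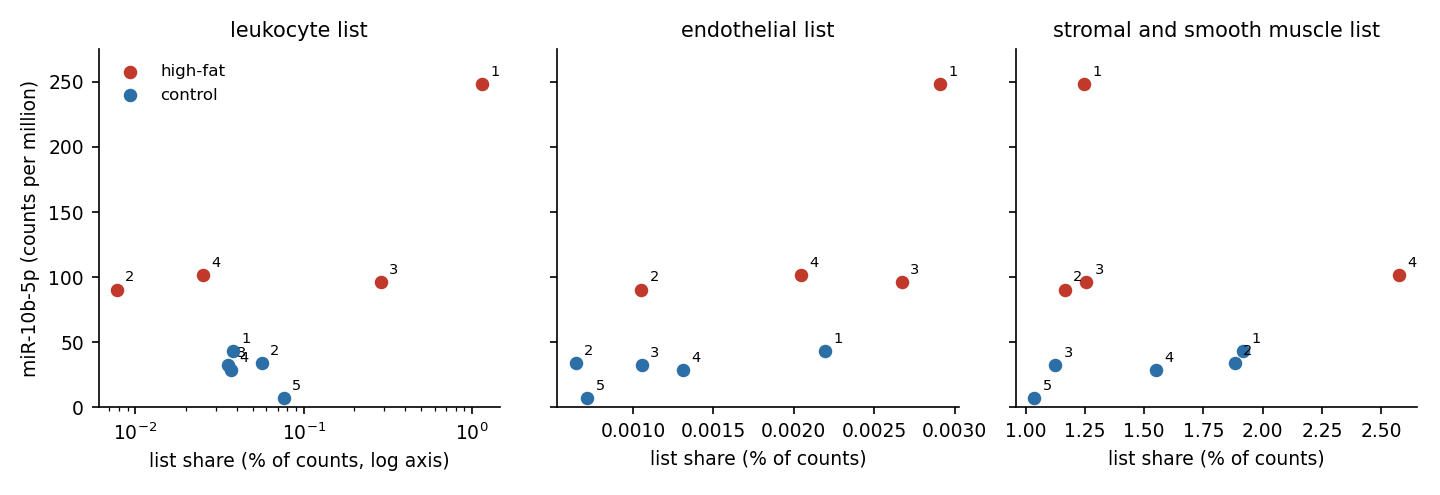
miR-10b-5p in CPM (vertical axis) against the share of counts held by the leukocyte list (left, log axis), the endothelial list (middle) and the stromal list (right), by dam with library numbers. High-fat dams are red and control dams blue. High-fat libraries 2 and 4, at 0.00777% and 0.0251% in the leukocyte list, lie at 90.3 and 101.8 CPM.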

How the data were processed

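The authors deposited whole read counts of known miRNAs in 1 table, with a column for each dam and a row for each precursor that yields a mature name. The submitters' processing notes name cutadapt 1.9.1 and the build GRCm38. The aligner, the counter and the miRBase release were not given in the sources used. Comma separators were removed, and the highest row of each of 1915 names was kept in each library. Each miR-10 name has 1 row. Because of the separators the columns were recorded under another unit than counts, so limma-voom (limma 3.58.1, R 4.3.3) was the test instead of a count model. Names needed 10 counts at the median library (5.25 CPM) in 4 libraries and 15 in total. Trimmed-mean (TMM) factors, diet as the only term and Benjamini-Hochberg adjustment over 312 names were used, and the fit and the sign-flip test were tested on simulated data. No library repeated another (lowest chi-square per degree of freedom within a diet 28.4). The members, lists and tests were chosen with earlier results of these data known. Named are the 4 members, the Hox and miR-99/100 lists and, for each guide, the 4 most alike names. Alternatives were other scalings, filters, weights and models, summed rows, a replicate block and each library left out.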

Additional observations from a re-analysis of the deposited data

Results flagged for a closer look

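Levels and ratios of the miR-10 products were searched in 14 groups of values for single libraries standing far outside the rest of a diet group, and 3 had one. Chance gives about 1 in 20 groups for normally distributed values, and levels and ratios need not follow that shape. The rate does not hold for miR-10b-3p, where any single count among zeros is picked out. miR-10b-5p measured 248 CPM in high-fat library 1, against 90.3 to 101.8 CPM in the other high-fat libraries. miR-10a-3p measured 74.002 CPM in control library 5, the shallowest, against 17.7 to 33.8 CPM in the other controls. miR-10b-3p measured 0.364 CPM in control library 3, a single count, with 0 counts in the other controls.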

How the results depend on the processing

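The log2 fold changes of the 3 tested members stayed above 0 under all 18 alternatives each. They ranged from 1.51 to 2.24 for miR-10b-5p, from 0.67 to 1.11 for miR-10a-5p and from 0.65 to 1.13 for miR-10a-3p. The number of called names, 0, became 4 without a filter on low counts, 2 with library quality weights, 2 with limma-trend and 4 without high-fat library 1 and control library 5 together, an alternative added after seeing the data, and ranged from 0 to 4 when each library was left out, the 4 coming without control library 5. The cause was not tested. With the replicate number as a block over the 8 libraries that share one, 3 names were called, and the log2 fold change of miR-10b-5p was 1.86 ± 0.26 (SE). The labels give no pairing, and deviations of same-numbered libraries correlated between -0.16 and 0.20, so the block result is a number only. The 3 within-library ratios kept their direction and their exact p below 0.05 under all alternatives. As each ratio was above 0 in 9 of 9 libraries, leaving 1 library out could give no other outcome, so this adds no support. Without 1 library the mean log2 ratios ranged from 4.57 to 5.18, from 5.42 to 5.59 and from 6.12 to 6.74, in the order given above. The mir-10b ratio was 5.75 with a pseudocount of 1 count. Depth limits miR-10b-3p, with 15 counts in 9 libraries.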
